A study of Equus caballus with 4 samples.

Results

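Expression of 8 genes around caspase-driven cell death was followed in differentiating equine satellite cells (ESC), muscle progenitors that divide and fuse into myotubes. The genes were *CASP1*, *CASP4*, *CASP6*, *CASP8*, *CASP9*, *GSDMD* (gasdermin D), *XAF1* and *CFLAR*. They were found by symbol on a horse expression array, which carried 43603 different probes of 60 bases and 13773 gene symbols. This gave 13 probes of 7 genes. No probe carried the symbol of *GSDMD*, hence 1 probe whose description in the files reads gasdermin D was added, for 14 probes in all.

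The cells came from the semitendinosus muscle of healthy stallions 6 months old and had differentiated for 3 days. One group, called HMB-treated, was incubated with 50 µM β-hydroxy-β-methylbutyrate (HMB), a metabolite of leucine, for 24 h. It received 3 mM H2O2 in the last 1 h, and the control group received H2O2 without HMB, so both groups were exposed to the peroxide. Each of 4 arrays carried HMB-treated cRNA labeled with Cy5 and control cRNA labeled with Cy3. The study's methods state that 1 culture was selected among those of all horses, so the 4 replicates, which the labels call biological, need not be 4 animals. In the labels the control keeps 1 replicate number throughout, and the p-values then measure only the spread between these arrays, which may be technical. The dyes were not swapped, so treatment and dye cannot be told apart. All values below are log2 ratios of the Cy5 signal over the Cy3 signal, so a positive value stands for more signal in HMB-treated cells.

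Caspases are proteases made as inactive precursors. Initiator caspases are activated on a scaffold: *CASP8* at death receptors and *CASP9* on the apoptosome after cytochrome c has left the mitochondria. Executioner caspases such as *CASP6* then cut cell proteins. The inflammatory caspases *CASP1* and *CASP4* instead cleave gasdermin D, whose released part forms pores in the cell membrane and ends in pyroptosis. The product of *CFLAR* (c-FLIP) resembles caspase-8 without its protease activity and restrains it, and that of *XAF1* binds and counters XIAP, an inhibitor of caspases.

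The inflammatory caspases lie side by side in the horse genome, and their probes were compared first because related sequences can share signal. On EquCab1, the probes of *CASP12*, *CASP4*, *CASP1* and a caspase-1-like gene (LOC100069322) lay within 65546 bases of the minus strand, chr7:11212901-11278446. The lines below give 1 probe each of *CASP4* (chr7:11234198-11235776), *CASP1* (chr7:11248330-11248855) and the caspase-1-like gene (chr7:11270898-11278446), with capitals for bases identical to the *CASP4* probe when aligned without gaps.
CASP4: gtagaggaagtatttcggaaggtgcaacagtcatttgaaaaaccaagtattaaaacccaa
CASP1: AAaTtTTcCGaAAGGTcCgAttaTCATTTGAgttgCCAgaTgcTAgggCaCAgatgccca
caspase-1-like: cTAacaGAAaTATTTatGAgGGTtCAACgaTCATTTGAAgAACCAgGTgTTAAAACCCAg
The *CASP1* probe matched 31 of 53 aligned bases (58.5%) and the caspase-1-like probe 45 of 60 (75.0%). The *CASP4* probe thus had a close relative on the array, and that relative was not well above background in either channel on any array. The longest run of bases that any of the 14 probes shared exactly with a probe of another name was 12 to 15 bases.

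The other *CASP4* probe and 1 of the *CASP8* probes are shown because they sit at the very end of the coding sequence, with the stop codon, read as the last triplet of a frame with no earlier stop, in capitals. They were placed at chr7:11234138-11234197 on the minus strand and at chrUn:98746158-98746217 on the plus strand.
CASP4, last coding bases: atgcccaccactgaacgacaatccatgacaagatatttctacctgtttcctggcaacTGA
CASP8, last coding bases: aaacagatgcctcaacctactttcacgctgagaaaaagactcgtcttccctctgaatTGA
In each gene the second probe lay directly upstream of the first, so the 2 probes read neighboring parts of 1 transcript. For *CASP9*, by contrast, the 5 probes were shifted by 1 base each between chr2:35477720 and 35477783, and the 56 bases in capitals below are common to all 5.
CASP9: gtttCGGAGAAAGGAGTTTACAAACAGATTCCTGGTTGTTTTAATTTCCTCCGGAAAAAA
These 5 probes are close to repeated spots and count as 1 target. The probes with the largest rise and the only fall among the 8 genes, those of *XAF1* (chr11:46899783-46901633, minus strand) and *CASP6* (chr2:101492727-101495416, plus strand), were as follows.
XAF1: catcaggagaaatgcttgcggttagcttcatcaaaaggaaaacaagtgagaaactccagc
CASP6: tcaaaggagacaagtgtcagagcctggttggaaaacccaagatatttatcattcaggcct
Both span more than 60 bases of the genome, 1851 for *XAF1* and 2690 for *CASP6*, so each probe was placed across a gap, as an intron leaves. The files do not name the exons.

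A probe was tested where 1 channel was well above background on all 4 arrays, and it was called with an adjusted p of at most 0.05 and a fold change (FC) of at least 1.3. Among the 12 probes that were tested, 6 were higher, 1 was lower and 5 were not called. Over all 24669 tested probes, 28.6% were called, 12.1% as higher and 16.4% as lower. By symbol alone, without the gasdermin D probe, 6 of 11 tested probes were called. When both channels had to be well above background on all arrays, 11 probes of the 8 genes were tested, with 5 higher and 1 lower. The second *CASP8* probe, which passed the filter through the HMB channel alone, was then left out. By gene, *CASP4*, *CASP8*, *GSDMD* and *XAF1* rose, *CASP6* fell, *CASP9* was not called, and *CASP1* and *CFLAR* could not be tested. The median log2 ratio of the 6 tested genes was 1.33, against -0.09 over all 8490 tested symbols. The 8 genes were chosen with earlier results of these data known, so this contrast describes them and is not a test.

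**Figure D1:**
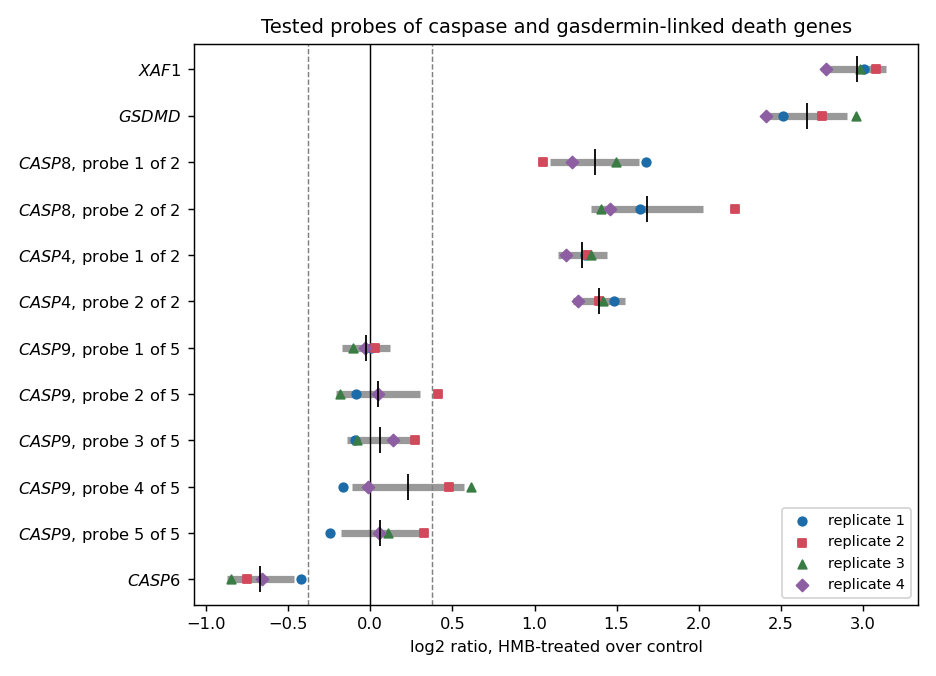
Log2 ratio of HMB-treated over control cells for the 12 tested probes. Symbols stand for the 4 arrays, black ticks for their mean, gray bars for the 95% confidence interval from limma and dashed lines for an FC of 1.3 in either direction. The rises of *XAF1*, *GSDMD*, *CASP8* and *CASP4* lie beyond the dashed line on every array, and the 5 *CASP9* probes gather around 0.

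Of the inflammatory branch, *CASP4* rose on all 4 arrays. The control signals of its probe at the stop codon were 1345, 1320, 1688 and 1348 on replicates 1 to 4, and the HMB-treated signals were 3328, 3301, 4292 and 3078. The lowest HMB-treated signal was therefore above the highest control signal. The log2 ratios were 1.31, 1.32, 1.346 and 1.19, with a mean of 1.29 ± 0.07 (SD, n = 4), an FC of 2.45 and an adjusted p of 2.92e-05. The neighboring probe had ratios of 1.49, 1.40, 1.41 and 1.27, with a mean of 1.39 ± 0.09 and an adjusted p of 2.64e-05. Both probes of *CASP4* thus rose by nearly the same amount, with means that lay 0.10 apart.

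The gene next to it, *CASP1*, gave no measurable level. Its signals were 5.29, 5.98, 6.23 and 5.68 in control cells and 7.75, 12.2, 11.4 and 8.91 in HMB-treated cells, and neither channel was well above background on any array. The extraction software had replaced the control value by a surrogate on all 4 arrays and the HMB-treated value on 2, so no FC is given. A change of *CASP1*, the caspase of the canonical inflammasome, was not detectable with this probe.

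Gasdermin D, the pore-forming substrate of both inflammatory caspases, had the second largest rise among the 8 genes. Its probe was placed at chrUn:227723774-227723833 on the minus strand, on the set of unplaced sequence. The control signals were 4112, 3806, 4134 and 3519, and the HMB-treated signals were 23450, 25630, 32080 and 18740. The groups did not overlap, and the highest HMB-treated signal was on replicate 3. The log2 ratios of 2.51, 2.75, 2.96 and 2.41 had a mean of 2.66 ± 0.24 (SD, n = 4), an FC of 6.31 and an adjusted p of 1.13e-05. No spot of this probe was saturated or marked, so the rise was measured within the range of the scanner.

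**Figure D2:**
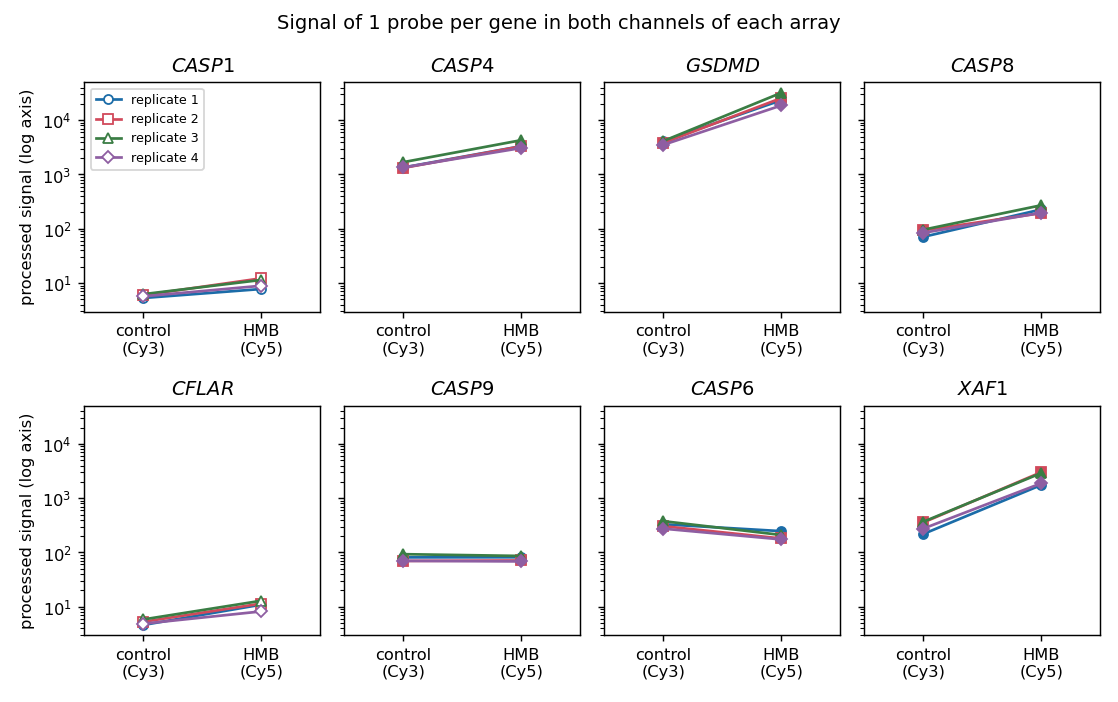
Processed signal (log axis) of 1 probe per gene in the control channel (Cy3) and the HMB channel (Cy5), with 1 line per array; open symbols mark genes whose probe was not well above background. Lines rise steeply for *XAF1* and *GSDMD*, less for *CASP4* and *CASP8*, stay level for *CASP9* and fall for *CASP6*. Brightness can be compared between the ends of a line but not between genes, since probes differ in how well they bind.

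Of the initiator caspases, *CASP8* rose and *CASP9* was not called. The *CASP8* probe at the stop codon had control signals of 70.9, 93.5, 96.0 and 84.1 and HMB-treated signals of 227, 194, 271 and 197. These signals were dim, yet the groups did not overlap. The log2 ratios were 1.68, 1.05, 1.498 and 1.23, with a mean of 1.37 ± 0.28 (SD, n = 4), an FC of 2.58 and an adjusted p of 0.000253. The second probe (chrUn:98746098-98746157) had ratios of 1.64, 2.22, 1.41 and 1.46 and a mean of 1.68 ± 0.37, with an adjusted p of 0.000278. Its control channel was well above background on 3 of 4 arrays. Its highest ratio fell on replicate 2, the array with the lowest ratio of the first probe, so the 2 probes did not rank the arrays alike. The size of the *CASP8* rise depended on the background correction, with an FC of 1.63 by the first probe after normexp correction, and it was called under this setting too.

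The brightest *CASP9* probe had control signals of 81.1, 69.9, 92.9 and 69.9 and HMB-treated signals of 81.5, 71.2, 86.2 and 68.3, and these ranges overlapped. The log2 ratios were 0.01, 0.03, -0.11 and -0.03, with a mean of -0.03 ± 0.06 (SD, n = 4), an adjusted p of 0.735 and a 95% confidence interval of -0.17 to 0.12. The means of the other 4 probes lay between 0.05 and 0.23, with single ratios from -0.24 to 0.61. The highest upper limit of an interval among the 5 probes was 0.57. All 5 probes were well above background in both channels, yet about as dim as the control signals of *CASP8*. Thus the difference of *CASP9* was within the spread between arrays, and the interval of its brightest probe did not reach an FC of 1.3.

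The regulator of *CASP8*, *CFLAR*, was not measured well enough for a comparison. Its probe (chrUn:301782010-301782069, plus strand) had control signals of 4.61, 5.27, 5.83 and 4.86 and HMB-treated signals of 10.9, 11.4, 12.9 and 8.2, none well above background. The control value was a surrogate on 3 arrays and the HMB-treated value on 1. In the RefSeq annotation of the TB-T2T assembly, *CFLAR* and *CASP10* were adjacent and *CASP8* followed after 2 other genes. These neighbors therefore differed in what could be read from the array, with *CASP8* called and *CFLAR* at background.

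The executioner *CASP6* was the single gene of the 8 that fell. Its control signals were 331, 305, 377 and 274, and its HMB-treated signals were 247, 181, 210 and 174. Every HMB-treated signal was below every control signal. The log2 ratios of -0.42, -0.75, -0.85 and -0.66 had a mean of -0.67 ± 0.18 (SD, n = 4), which is an FC of 1.59 toward lower signal with an adjusted p of 0.00146. This call was lost after normexp correction, with a log2 ratio of -0.36, and in limma's treat test against an FC of 1.3 (adjusted p = 0.0555).

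The XIAP antagonist *XAF1* had the largest rise among the 8 genes. The control signals were 219, 357, 368 and 275, and the HMB-treated signals were 1756, 3024, 2911 and 1887. Replicates 2 and 3 were the brighter pair in both channels, and the groups did not overlap. The log2 ratios were 3.00, 3.08, 2.98 and 2.78, with a mean of 2.96 ± 0.13 (SD, n = 4), an FC of 7.79 and an adjusted p of 1.97e-06. Although the control signals differed among arrays, the ratios of *XAF1* stayed within 2.78 to 3.08. After normexp correction the FC was 5.17.

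The order of the log2 ratios was *XAF1*, *GSDMD*, *CASP8*, *CASP4*, *CASP9* and *CASP6*. The ratio of *XAF1* was above that of *GSDMD* on all 4 arrays, with a difference of 0.30 ± 0.20 (SD) and as little as 0.03 on 1 array. The ratios of *CASP8* and *CASP4* differed by 0.07 ± 0.27, with *CASP8* above on 3 of 4 arrays, so these neighbors in the order did not differ beyond their spread. The step from *GSDMD* to *CASP8* was 1.29 ± 0.37, that from *CASP4* to *CASP9* was 1.32 ± 0.10, and that from *CASP9* to *CASP6* was 0.64 ± 0.16, each in the same direction on all 4 arrays. The fit did not test these differences.

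The rises of *XAF1*, *GSDMD*, *CASP8* and *CASP4* were called under every other way of processing that gave a value for them. Across these the log2 ratio ranged from 2.37 to 3.09 for *XAF1*, from 2.17 to 2.86 for *GSDMD*, from 0.70 to 1.48 for *CASP8* and from 0.80 to 1.48 for *CASP4*, each by its brightest probe. The second *CASP8* probe ranged from 0.53 to 1.78, and the mean over both *CASP8* probes was 1.52. Scaling to spike-in RNA, which shifted the median of all tested probes from -0.07 to -0.56, moved *CASP9* to -0.52 and *CASP6* to -1.16. Relative to that median, *CASP9* stayed close to the bulk of the probes.

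**Figure D3:**
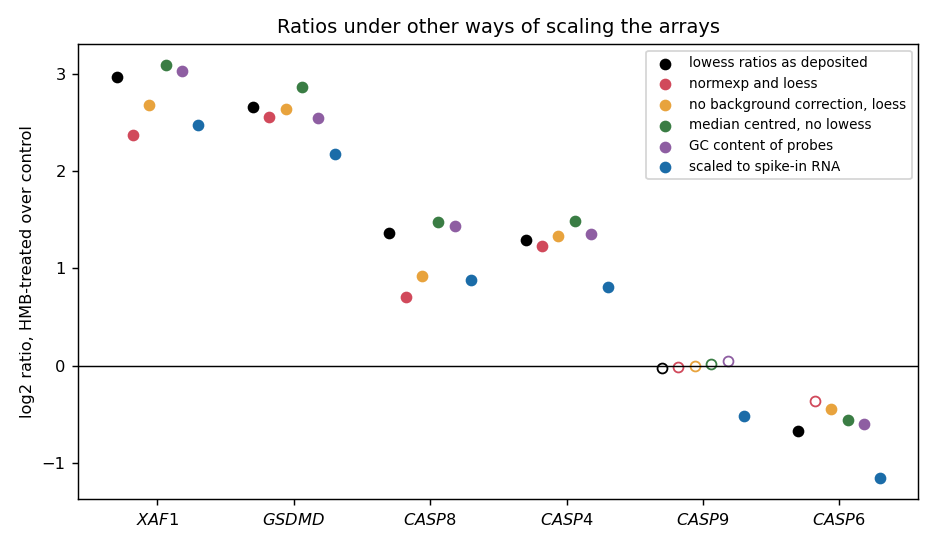
Log2 ratio (HMB-treated over control) of the 6 tested genes by their brightest probe under 6 ways of correcting and scaling the signals. Filled points passed both thresholds and open points did not. The rises stay well above 0 in each, *CASP9* is called only with spike-in scaling, and *CASP6* loses its call with normexp.

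By the root mean square difference of the 4 array ratios over 8484 symbols, the genes most like *XAF1* were *CCL13* (0.10) and *UBE2L6* (0.13). Those most like *GSDMD* were *OAS3* (0.16) and *GVINP1* (0.19), and those most like *CASP8* were *RNF114* (0.11) and *CDA* (0.19). This measure describes likeness of the ratios on these arrays only.

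Around the 8 genes, 77 other genes of cell death were listed, of which 60 had a probe and 40 were tested. Of these, 14 rose, 6 fell and 20 were not called, with a median log2 ratio of 0.08. With median centering 18 were called as higher and 2 as lower, and with spike-in scaling 8 and 19. The counts were 9 and 1 with treat, 9 and 2 with normexp, 10 and 2 without background correction, and 9 and 6 of 34 genes when both channels had to be well above background. Among all tested symbols, 10.1% were called as higher and 17.3% as lower.

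Of the other caspases, *CASP10*, adjacent to *CFLAR*, and *CASP12*, whose probe lay within the same 65546 bases as those of *CASP4*, were called by their brightest probes. The death receptor caspase *CASP10*, a relative of *CASP8*, had a mean of 1.73 ± 0.27 (adjusted p = 8.41e-05) by 1 probe and -0.12 ± 0.30 (adjusted p = 0.432) by the other, so its probes disagreed. The FC of the first, 3.32, became 1.51 after normexp correction. Its control signals of 31.5 to 46.5 were below those of the other probe, 51.4 to 81.7. It thus ranked as brightest only through its HMB-treated signals, and its control channel was well above background on 3 of 4 arrays. The gene *CASP12* rose by 1.26 ± 0.28 (adjusted p = 0.000371), with a control channel well above background on 2 of 4 arrays, and lost its call after normexp correction. The probes of *CASP2* and *CASP14* were too dim for the test.

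Of the inflammasome and gasdermin list, 5 of the 17 genes on the array were tested, 2 rose and 1 fell. The shares among all tested symbols were 10.1% higher and 17.3% lower, and 5 genes are too few to compare with them. The rises were those of *GBP5*, a guanylate-binding protein linked to inflammasome assembly, with 3.78 ± 0.21 (adjusted p = 1.97e-06), and *PYCARD*, the adaptor between sensor and caspase-1, with 0.48 ± 0.12 (adjusted p = 0.00255). All 5 tested probes of *GBP5* were called, and a less bright one, also measured in both channels, had a mean of 4.69 ± 0.30. The *PYCARD* call was lost with treat and with spike-in scaling, where its ratio was -0.0041. The cytokine *IL18*, a substrate of caspase-1, fell, with ratios of -0.98, -1.11, -1.08 and -1.06 and an adjusted p of 5.9e-05. The other members that can be set beside *GSDMD* were not measurable: *IL1B* and the gasdermin genes *GSDMA*, *GSDMB* and *DFNA5* did not pass the filter.

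Of the death receptor genes around *CASP8*, 6 of 11 tested rose and 5 were not called, beside 10.1% called as higher among all tested symbols. Some of these rises passed the filter only through the HMB channel, as given below for *TNFSF10* and *MLKL*. Another of the rises also gave no value when both channels had to be well above background. The count therefore describes the list and is not a test. The ligand *TNFSF10* (TRAIL) was at least 16.1-fold higher (adjusted p = 3.1e-06), a bound because its control channel was not well above background on any array, so that it passed the filter through the HMB channel alone. After normexp correction its FC was 2.94, below that bound. *MLKL*, the effector of necroptosis, rose by 2.09 ± 0.32 (adjusted p = 7.18e-05), with a control channel well above background on 3 of 4 arrays, and its FC of 4.26 became 1.68 after normexp correction. Other rises were 1.302 ± 0.10 for *BID*, which caspase-8 cleaves (adjusted p = 3.91e-05), and 0.84 ± 0.14 for *CYLD*, a deubiquitinase of this complex (adjusted p = 0.00035). The 10 probes of *BID* start within a few bases of each other on 2 transcripts and, like those of *CASP9*, count as 1 target. The kinase gene *RIPK1* rose by 0.39 ± 0.09 (adjusted p = 0.00431), just past the FC threshold. Under spike-in scaling *CYLD* lost its call.

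On the mitochondrial side, where *CASP9* acts, 1 of 6 tested genes rose and 2 fell. Among all tested symbols 10.1% were called as higher and 17.3% as lower, so these few calls do not set the list apart. The gene for cytochrome c, *CYCS*, fell with a mean of -0.67 ± 0.22 (adjusted p = 0.00237) but lost its call with treat and with median centering. Also lower was *AIFM1*, with -0.42 ± 0.10 (adjusted p = 0.00343), while *AIFM2* rose by 0.46 ± 0.18 (adjusted p = 0.00638). The 2 probes of the scaffold gene *APAF1* lay on either side of the FC threshold, the brighter with a mean of 0.36 ± 0.18 (adjusted p = 0.0146) and not called, the other with 0.39 ± 0.21 (adjusted p = 0.0143) and called. Of the 13 tested probes of *AIFM1*, 7 were called.

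Among the inhibitors of apoptosis, *BIRC3* rose by 3.98 ± 0.31 (adjusted p = 4.28e-06), an FC of 15.8 that became 7.37 after normexp correction, and 4 others were not called. The target of *XAF1*, *XIAP*, had a mean of 0.28 ± 0.27 (adjusted p = 0.0808), and *BIRC2* had 0.21 ± 0.11 (adjusted p = 0.0477). Thus *XAF1* and *BIRC3*, with opposite known roles toward cell death, were both among the larger rises of these lists. Of 9 caspase substrates, *LMNB1* rose by 0.51 ± 0.27 (adjusted p = 0.0107), *DFFA*, *GSN* and *ROCK1* fell with means of -0.47, -0.44 and -0.41, and 5 were not called. Of the 5 tested probes of *ROCK1*, 2 were called. Beside these counts, 10.1% of all tested symbols were called as higher and 17.3% as lower. Among the small called changes of these lists, *RIPK1*, *AIFM1*, *AIFM2*, *LMNB1*, *DFFA*, *GSN* and *ROCK1* kept their call in 13 to 16 of 20 settings. The call was lost for *RIPK1* without replicate 3 (0.378) or replicate 4 (0.357), for *ROCK1* without replicate 3 (-0.373) and for *AIFM1* without replicate 4 (-0.377), each just under the FC threshold. With spike-in scaling *RIPK1* and *AIFM2* turned to -0.10 and -0.03, and neither was called.

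**Figure D4:**
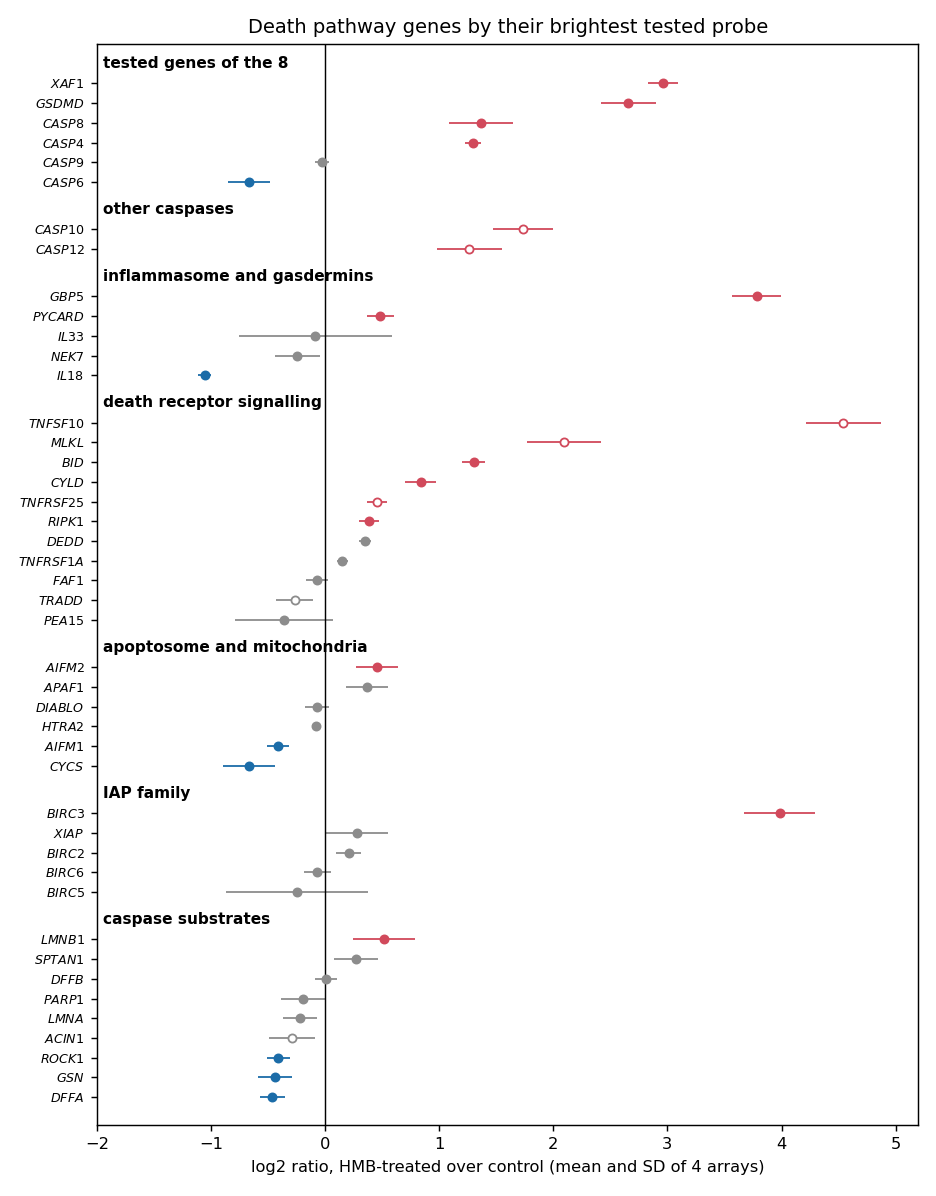
Log2 ratio (HMB-treated over control) of the tested genes among the 8 and of 38 tested genes of the death pathway lists, as mean and SD of 4 arrays. Red points were called as higher, blue as lower and gray were not called; open points had a channel that was not well above background on all arrays. The point of *TNFSF10* rests on a control channel at background and only a bound can be given for it. By brightest probe, and among genes measured in both channels, the called rises reach 3.98 for *BIRC3*. The mitochondrial and substrate lists stay between -0.67 and 0.51.

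The arrays were alike in quality, with 55.2 to 61.8% of probes well above background per channel, 13 to 35 marked spots and 0 saturated spots per array. All 8 myogenic markers on the array were well above background in both channels, and 6 of them fell. The regulators *MYOD1* (0.32 ± 0.25, adjusted p = 0.0441) and *MYOG* (0.03 ± 0.22, adjusted p = 0.807) were not called. The summed signal was 170000 to 191000 in control and 64800 to 103000 in HMB-treated cells. Most of it came from *MYH3* and *ACTA1*, with control signals of 80350 to 88920 and 61000 to 69620. Of 5 fibroblast markers, all well above background, 4 rose (*PDGFRA*, *DCN*, *THY1* and *LUM*), and the sum of all 5 was 194000 to 223000 in control and 223000 to 340000 in HMB-treated cells. Most of that sum was *COL3A1*, which was not called (0.06 ± 0.29, adjusted p = 0.669), and the 4 others summed to 58100 to 71900 and 91700 to 133000. Of 9 leukocyte markers, 3 were above background and 2 rose, with sums of 4300 to 5200 in control and 5060 to 7240 in HMB-treated cells, while *CSF1R*, *ITGAM*, *AIF1*, *CD3E*, *CD2* and *CD79A* were not well above background on all arrays. Endothelial and adipocyte markers were 0 of 6 and 0 of 3 above background. In such bulk RNA, fewer cells of a type and less RNA per cell cannot be told apart. The part of these marker shifts in the ratios of the 8 genes was not tested.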

How the data were processed

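Satellite cell RNA was compared on 4 Agilent horse arrays, each with both groups. The authors' scanner files hold the intensity of each spot after background subtraction and after linear and lowess normalization. The deposited log10 ratios of Cy5 over Cy3 were written by Feature Extraction (10.10.1.1 in the file headers), and the authors' table repeats them. The log2 ratios used here were calculated from the deposited log10 ratios. Control and marked spots were left out, and a ratio was needed on at least 3 arrays. Signals at background hold a surrogate, which compresses ratios of dim probes. Probe positions refer to EquCab1.

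The log2 ratios were fitted with an intercept in limma 3.58.1 (R 4.3.3) with empirical Bayes moderation and Benjamini-Hochberg correction over all tested probes, which is where every adjusted p comes from. The fit was tested on simulated data. The thresholds (adjusted p 0.05, FC 1.3) follow the study's methods, and limma replaced its t-test because 4 arrays estimate each probe's spread poorly. The number of arrays limits the precision. Where a gene had more than 1 probe, the brightest tested one stands for it. Brightness was the mean log2 signal of both channels, so a rise can itself move a probe up in this order. The bound was the HMB-treated mean against, per array, the higher of the dim probe's own control signal and the lowest signal well above background.

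All probes of the 8 genes are named. From each pathway list, up to 4 called genes with the largest ratios and a fixed set of central genes are named. The members and lists were chosen with earlier results of these data known. The alternatives were other tests, background corrections, scalings and filters, the authors' table, the mean over probes, separate channels and each replicate left out. Of the array's probes, 42705 were named by the files' symbol field, 894 by a RefSeq accession and 4 by their description. A few genes of the lists stay in the counts but are not reported here by name.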

Additional observations from a re-analysis of the deposited data

How the results depend on the processing

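The 7 called probes of the 8 genes stayed at 7 when each replicate was left out (7 to 7), while all called probes ranged from 6637 to 7151 and called genes of the pathway lists from 19 to 21. The rises of *XAF1*, *GSDMD*, *CASP8* and *CASP4* kept their direction and call in all alternatives run. Called probes numbered 7046 in the fit reported, 2822 with treat, 3539 with normexp, 4440 without background correction and 18570 with spike-in scaling. The pathway lists gave 20 called genes, and 10 with treat, 11 with normexp and 12 without background correction. With spike-in scaling, 11 probes of the 8 genes were called, 6 higher and 5 lower, and *CASP9* was called at -0.52 (adjusted p = 0.000565). The ratio of *CASP9*, near 0, turned to 0.0213 with median centering, 0.0467 with the GC correction and 0.0741 as the mean over its probes, and was not called in any of these. The share of higher among called probes was 42.5%, and it was 54.6% with treat, 55.0% with normexp, 60.1% without background correction, 65.3% with median centering, 54.1% with the GC correction and 6.72% with spike-in scaling. The array pairs the channels. Without this replicate block, with the channels as separate samples, 5249 probes, 7 probes of the 8 genes and 14 pathway genes were called. The methods' t-test at its FC threshold and after Benjamini-Hochberg correction called 5030, 7 and 18. The mean over probes gives no count of probes. The causes of these differences were not tested. Signal over background limits what can be said of *CASP1*, *CFLAR* and the dim probes of *CASP8* and *CASP9*.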

Other observations

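The probe of *GSDMB*, another gasdermin gene (chr11:21294189-21294846), had HMB-treated signals of 11.5, 7.11, 6.73 and 32410 on replicates 1 to 4, and its control signals were 11.9, 5.42, 5.75 and 6.88. The signal on replicate 4 rests on 1 spot that was not marked as an outlier by the software, and the probe did not pass the filter on dim probes. It was chosen after its values were seen. The *CASP10* probes that disagreed had single ratios of 1.64, 1.87, 2.01 and 1.41 and of -0.37, -0.26, -0.15 and 0.31, and these ranges did not overlap.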
